A study of Homo sapiens with 4 samples.

Results

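Small nuclear RNAs (snRNAs) are short non-coding RNAs that work inside ribonucleoprotein particles, and 10 genes were followed here through a promoter accessibility experiment on MORC2. They comprised RNU4-1, RNU4-2, RNU5A-1 and RNU5B-1 of the major spliceosome, RNU4ATAC, RNU6ATAC, RNU11 and RNU12 of the minor spliceosome, RN7SK, and the protein-coding gene WDR74, whose annotated span carries a U2 snRNA gene. The genes were chosen by gene class and annotation, with counts and fold changes of these same libraries already known, so their differences between groups are given as a description and not as tests. All 10 genes had a row in the promoter count table of 28775 rows, each matched by Entrez identifier, and all 10 were among the 23407 promoters that passed the filter on low counts.

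HEK293T cells, a human embryonic kidney line carrying the SV40 large T antigen, were profiled by ATAC-seq, in which the Tn5 transposase cuts and tags open DNA. The overexpression group (2 libraries) had been transfected with a plasmid, pBacMam-MORC2-meGFP, that encodes wild-type MORC2 with a fluorescent tag, MORC2 being a DNA-compacting ATPase. Control cells (2 libraries) had received only Lipofectamine, the transfection reagent, and both groups kept their own MORC2 gene. Because the control carried no plasmid according to the series design, effects of MORC2 and of plasmid DNA cannot be told apart, and the libraries do not show which share of the cells took up the plasmid. Total counts per library ran from 3734519 to 10255182, nuclear promoters alone held between 979895 and 4928862, and the mitochondrial genome took 51.9% and 55.6% of promoter counts in control against 74.7% and 73.8% in overexpression. Among kidney and HEK293 markers, the promoters of VIM and CDH2 held between 99 and 723 counts in every library, while PAX8 and EYA1 held at most 22. The blood and liver markers PTPRC, CD3E and ALB held at most 10 counts in any library, none being empty in all of them.

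Most spliceosomal snRNA genes are transcribed by RNA polymerase II from compact promoters without a TATA box, whereas U6-type and 7SK genes are transcribed by RNA polymerase III from promoters that share the same elements and add a TATA box. A proximal element is bound by the SNAPc complex and a distal element, often an octamer site together with a ZNF143 site, is bound by POU2F1 (Oct-1) and ZNF143. Such genes are among the most heavily transcribed of a human cell, and several sit back to back with a protein-coding gene.

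Sequence was read from a RefSeq promoter table (GRCh38.p14), in which WDR74 alone of the 10 genes had entries of its own, 2 in number. The search therefore also took in entries of other genes lying within 500 bases of a member, because such sequence can fall inside the accessibility window of both. The 250 bases before the start were searched on both strands for the octamer ATGCAAAT, exactly or with up to 1 mismatch, for a ZNF143 core written TCCCANNAT, and for TATAAA. In the sequences below, capitals mark the octamer (up to 1 mismatch) or the ZNF143 core, and positions count back from the annotated start of the gene whose entry it is. The entry of SIRT4, a mitochondrial sirtuin gene, ends 35 bases from RNU4-2 and is shown because it holds the exact octamer. POLDIP3, whose product interacts with a DNA polymerase delta subunit, has its entry 110 bases from RNU12, and GSTA4, a glutathione transferase gene, has its entry 85 bases from RN7SK. WDR74 is shown as the most accessible of the 10.
WDR74, chr11:62839660-62839909, minus strand: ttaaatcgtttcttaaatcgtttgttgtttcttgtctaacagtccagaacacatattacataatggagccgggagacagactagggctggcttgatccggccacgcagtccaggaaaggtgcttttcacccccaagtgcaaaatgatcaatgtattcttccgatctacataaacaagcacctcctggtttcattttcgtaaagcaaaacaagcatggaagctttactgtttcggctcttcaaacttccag
SIRT4 (beside RNU4-2), chr12:120291939-120292188, plus strand: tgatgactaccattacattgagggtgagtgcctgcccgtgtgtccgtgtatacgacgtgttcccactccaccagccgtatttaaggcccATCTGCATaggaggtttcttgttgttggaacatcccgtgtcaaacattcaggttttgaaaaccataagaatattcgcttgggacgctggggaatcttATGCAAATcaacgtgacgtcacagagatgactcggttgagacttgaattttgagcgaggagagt
POLDIP3 (beside RNU12), chr22:42614884-42615133, minus strand: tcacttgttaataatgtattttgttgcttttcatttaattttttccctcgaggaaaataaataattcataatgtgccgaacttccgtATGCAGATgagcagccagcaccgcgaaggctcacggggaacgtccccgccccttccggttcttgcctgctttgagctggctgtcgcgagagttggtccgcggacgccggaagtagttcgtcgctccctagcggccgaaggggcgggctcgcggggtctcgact
GSTA4 (beside RN7SK), chr6:52995285-52995534, minus strand: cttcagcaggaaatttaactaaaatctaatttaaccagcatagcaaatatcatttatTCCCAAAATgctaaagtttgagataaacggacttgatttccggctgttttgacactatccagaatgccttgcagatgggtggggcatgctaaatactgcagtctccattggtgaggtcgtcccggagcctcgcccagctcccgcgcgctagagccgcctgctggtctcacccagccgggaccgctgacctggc

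The exact octamer lay at position -64 of SIRT4, on its own strand, and 1.63% of all 35116 entries hold that word in the same 250 bases. An octamer with 1 mismatch lay at position -161 of SIRT4 on the opposite strand and at -163 of POLDIP3, a looser match that 15.3% of entries hold. The ZNF143 core was found at position -193 of GSTA4, against 3.74% of entries. Neither WDR74 entry held any of the words, and none of the sequences shown held TATAAA, which 10.7% of entries have. These matches describe letters in a window and not binding. GC content was 42.8% in the WDR74 sequence printed, 47.2% for SIRT4, 54.0% for POLDIP3 and 50.4% for GSTA4, against a median of 58.0% over all entries.

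WDR74 encodes a nucleolar protein needed for assembly of the large ribosomal subunit, and its promoter was by far the most open of the 10. Control replicates 1 and 2 gave 967 and 757 counts at WDR74, and the overexpression replicates 445 and 255. Scaled for library size by the TMM method (TMM-scaled CPM, the unit of all levels below), these were 69.1 and 73.0 in control and 83.2 and 87.6 in overexpression. Both overexpression libraries lay above both control libraries. Mean levels were 71.1 ± 2.75 and 85.4 ± 3.09 (SD, n = 2), and the log2 fold change of overexpression over control was 0.26 (SE 0.0936). Among 23370 nuclear promoters tested, WDR74 ranked 100 in control and 12 in overexpression.

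The RefSeq gene table (GRCh38) places WDR74 on chromosome 11 from 62832905 to 62841809, and the U2 gene RNU2-2, from 62841619 to 62841809, ends at the same base as WDR74. RNU2-2 lies 1709 bases beyond the nearer of the 2 WDR74 promoter entries and was not analysed here on its own. Which start site centred the window of the count table on the CHM13 assembly was not given in the sources used here, so the WDR74 count may or may not take in the U2 gene. STX5-DT is a non-coding transcript divergent from the syntaxin gene STX5, and its span overlaps that of WDR74. The overlap is of gene spans, and the distance between the promoter windows was not determined. STX5 itself had a log2 fold change of -0.42 (edgeR adjusted p 0.0298). STX5-DT went the other way from WDR74, with 39.7 and 43.0 in control and 30.9 and 31.3 in overexpression. Its log2 fold change was -0.41 (SE 0.118, edgeR adjusted p 0.0344). It passed the threshold in 6 of 14 alternatives, among them scaling by library totals, where 99.7% of all calls were lower. It did not pass with upper-quartile (0.0987) or loess scaling (0.393), under a filter of 10 counts per library (0.0535), with DESeq2 (0.0877) or without any 1 library (0.0768 to 0.280). SNHG1, a snoRNA host gene on the other side, stayed between 18.8 and 20.8 in all 4 libraries with a log2 fold change of -0.02 (SE 0.143).

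RN7SK encodes 7SK, the RNA that holds the elongation kinase P-TEFb inactive, and is a polymerase III gene of chromosome 6 (52995620 to 52995951). Its levels were 26.9 and 28.8 in control and 31.6 and 27.1 in overexpression. The groups overlapped, and the log2 fold change was 0.11 (SE 0.124). GSTA4, which ends 335 bases from RN7SK, had 29.9 and 31.4 in control and 34.4 and 29.9 in overexpression, and the log2 fold change was 0.10 (SE 0.121). Windows of 2 kb around starts this close share sequence, so a fragment can be counted for both genes. CILK1, a kinase gene 5351 bases away on the other side, had a log2 fold change of 0.02 (SE 0.142).

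The minor spliceosome, which removes a rare class of introns, uses U11 and U12 to recognise the intron and the U4atac/U6atac pair to activate it. RNU6ATAC, the other polymerase III gene, had the highest level of these in control, at 31.8 and 27.6, and had 29.4 and 23.7 in overexpression. Its groups overlapped, with a log2 fold change of -0.13 (SE 0.126). RNU4ATAC had 24.0 and 22.9 in control and 22.4 and 21.3 in overexpression. Both overexpression libraries were the lower, by a log2 fold change of -0.09 (SE 0.136) that is smaller than its error. RNU12 had 25.5 in both control libraries and 25.3 and 21.3 in overexpression, so the groups did not overlap although overexpression replicate 1 lay close to control. The log2 fold change of RNU12 was -0.10 (SE 0.132). RNU11 had 20.7 and 16.8 in control and 20.6 and 22.3 in overexpression, with overlapping groups and a log2 fold change of 0.16 (SE 0.141).

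**Figure D1:**
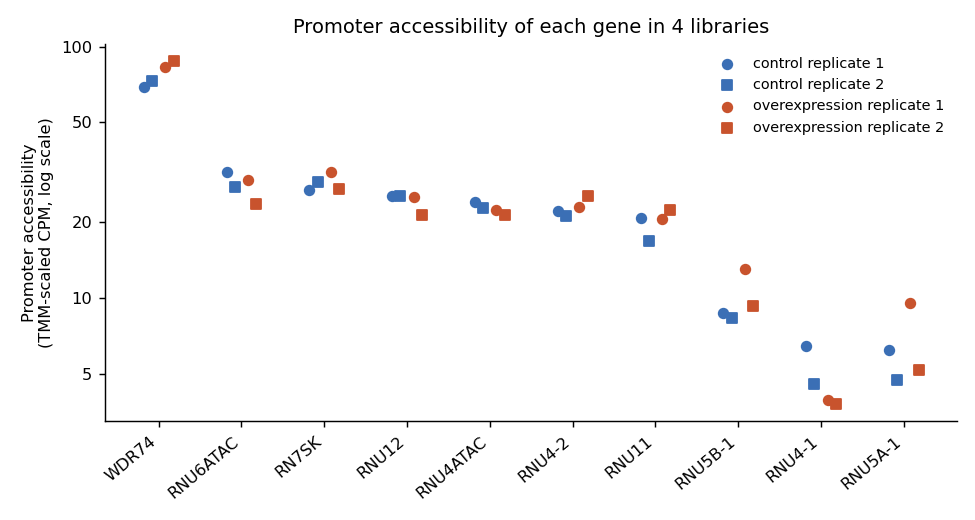
Promoter accessibility in TMM-scaled CPM on a log axis for the 10 genes, with 1 point per library (blue control, red overexpression, circles replicate 1, squares replicate 2). WDR74 sits at 69.1 to 87.6, 6 genes sit between 16.8 and 31.8, and RNU5B-1, RNU4-1 and RNU5A-1 sit between 3.78 and 13.1.

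U4 and U5 belong to the tri-snRNP of the major spliceosome, U4 as the partner that keeps U6 inactive and U5 as the RNA that aligns the exons. The pair of U4 genes on chromosome 12 have starts 1334 bases apart, so their 2 kb windows share sequence. The window of RNU4-2 can also share sequence with that of SIRT4, whose promoter entry lies 35 bases from RNU4-2. The U4 genes differed in level and in the sign of the log2 fold change, with neither past the threshold. RNU4-2 had 22.2 and 21.1 in control and 23.0 and 25.4 in overexpression, and both overexpression libraries were the higher, with a log2 fold change of 0.14 (SE 0.135). RNU4-1 had 6.43 and 4.53 in control and 3.93 and 3.78 in overexpression. Both overexpression libraries of RNU4-1 were the lower, with a log2 fold change of -0.53 (SE 0.289), but these levels rest on 90 and 47 counts in control and on 21 and 11 in overexpression. Both U4 genes overlap the annotated span of SIRT4, which had 40.8 and 38.9 in control and 46.0 and 55.0 in overexpression, a log2 fold change of 0.31 (SE 0.108, edgeR adjusted p 0.0897). SIRT4 passed the threshold with upper-quartile (0.0193) and loess scaling (0.0255), and in the other direction with library totals (-0.48).

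The U5 genes, 8626 bases apart on chromosome 15, carried the largest positive values of the 10 genes, at low counts. RNU5B-1 had 8.72 and 8.29 in control and 13.1 and 9.28 in overexpression, so the groups did not overlap, and its log2 fold change was 0.45 (SE 0.195). RNU5A-1 had 6.22 and 4.73 in control and 9.54 and 5.15 in overexpression. Its groups overlapped, and its log2 fold change of 0.51 (SE 0.236) rested on overexpression replicate 1, as the value was -0.12 without that library and 0.77 without overexpression replicate 2. RNU5B-1 moved likewise from 0.45 to 0.11 without overexpression replicate 1. U4 and U5 genes have near-identical copies elsewhere in the genome, so these counts are uncertain.

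**Figure D2:**
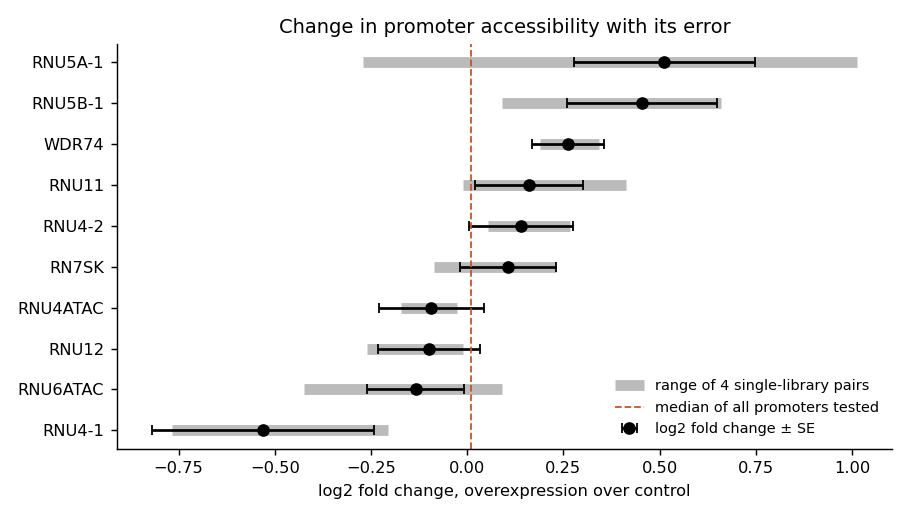
Log2 fold change of overexpression over control for the 10 genes with its SE (black), the range over the 4 pairs of single libraries (grey bars) and the median of all promoters tested, 0.01 (dashed). WDR74, the gene with the most counts, has the narrowest SE (0.26 ± 0.0936), which rests on shared dispersion and not on its own replicate spread. RNU5A-1 spans -0.27 to 1.01 across pairs of libraries.

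All windows have the same nominal length of 2 kb, but levels can be set side by side between genes only with limits. Counts of the U4 and U5 genes are uncertain because of near-identical copies, and mapping of reads to copies was not examined for any of the 10 genes. Some windows also share sequence with that of a neighbouring gene. In control the order ran from WDR74 through RNU6ATAC, RN7SK, RNU12, RNU4ATAC, RNU4-2, RNU11 and RNU5B-1 to RNU4-1 and RNU5A-1. RNU6ATAC and RN7SK overlapped across control libraries, as did RNU4-1 and RNU5A-1, whereas the other neighbours in that order had separate pairs of values. In overexpression WDR74 stayed above the other 9 and RNU5B-1, RNU5A-1 and RNU4-1 below the other 7, while the libraries of RN7SK, RNU6ATAC, RNU4-2, RNU12, RNU4ATAC and RNU11 lay between 20.6 and 31.6 and overlapped in part. The median nuclear promoter stood at 12.1 in control, which 7 of the 10 genes exceeded and RNU5A-1, RNU4-1 and RNU5B-1 did not.

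By the edgeR quasi-likelihood test, 0 of the 10 genes had an adjusted p under 0.05, against 2.47% of all promoters tested. DESeq2 gave an adjusted p to WDR74 alone of the 10 (0.155), so it could not call the others. An unadjusted edgeR p under 0.05 was reached by 3 genes (WDR74, RNU5B-1 and RNU5A-1), against 17.2% of all promoters. The groups did not overlap for 6 genes, namely WDR74, RNU4-2, RNU5B-1, RNU4-1, RNU4ATAC and RNU12, against 49.7% of all promoters. With 2 libraries a group, no exact permutation test can give a two-sided p below 0.333. Log2 fold changes were above 0 for 6 genes and below 0 for 4, with a median of 0.12 over the 10 genes and of 0.01 over all promoters. Without overexpression replicate 1 the median of the 10 was -0.081.

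Log2 fold changes in these libraries varied with abundance. With nuclear promoters split by mean level into 4 groups of equal size, from lowest to highest, the median log2 fold change was 0.36, 0.13, -0.05 and -0.12. RNU4-1, RNU5A-1 and RNU5B-1 lay in the second group, RNU11 in the third and the other 6 genes in the highest. Of the 100 nuclear promoters most accessible in control, 94 had a log2 fold change below 0, and the median of the 100 was -0.19. MIR4485 was the single one of the 100 above WDR74, at 1.20, and it is a microRNA gene within a nuclear copy of mitochondrial sequence. Choosing promoters by their control level favours values below 0, and WDR74 is the last of the 100, so promoters just below its level are not in this comparison. Its position was noticed after the values were seen and was not tested.

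**Figure D3:**
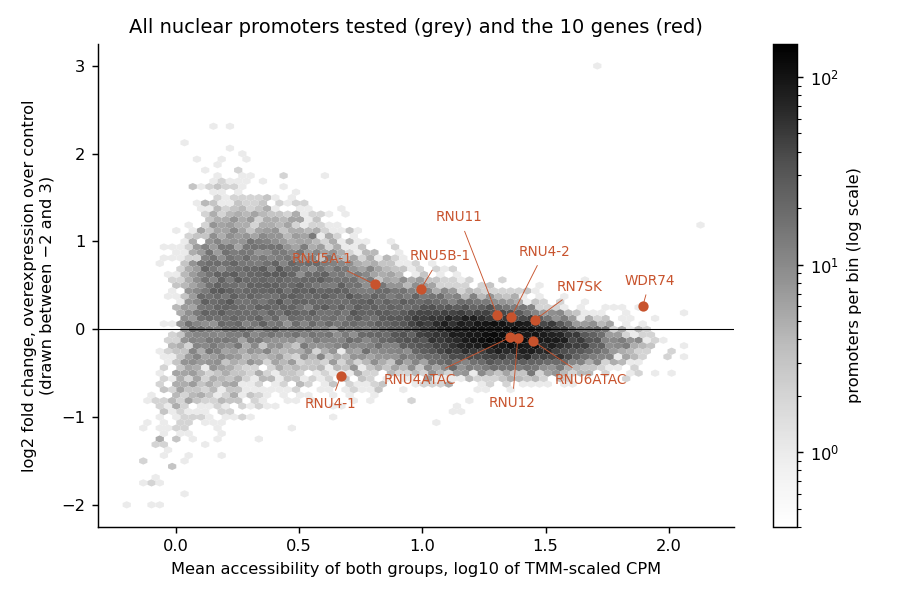
Log2 fold change against mean level (log10 of TMM-scaled CPM) for all nuclear promoters tested, as hexagons shaded by the number of promoters on a log scale, with the 10 genes in red. The grey cloud drifts downwards to the right, where the medians of the 4 abundance groups go from 0.36 to -0.12, and WDR74 lies at 0.26.

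The call for WDR74 depended on the scaling. WDR74 was not past an edgeR adjusted p of 0.05 with TMM (log2 fold change 0.26) and was past it with upper-quartile scaling (0.34) and with loess scaling on abundance (0.45). Scaling by library totals, most of which are mitochondrial counts, moved the median of all promoters to -0.79 and WDR74 to -0.53, past the threshold in the other direction and still 0.26 above the median. Without any 1 library WDR74 stayed between 0.22 and 0.30 and was not past the threshold in these 4 fits.

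**Figure D4:**
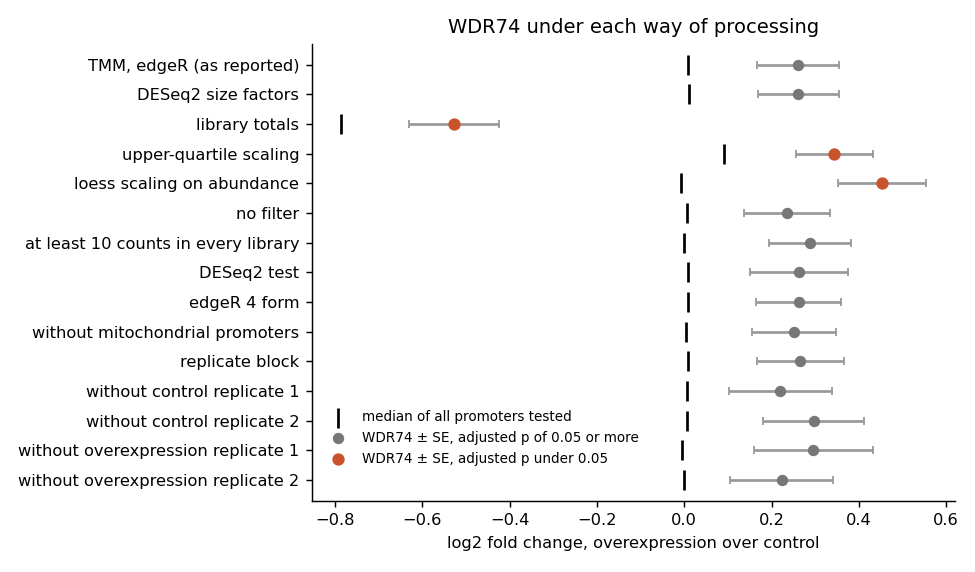
Log2 fold change of WDR74 with its SE under 15 ways of processing, red where the adjusted p was under 0.05, with the median of all promoters as a black tick. WDR74 lies to the right of the tick in all 15, by 0.21 to 0.46, and passes the threshold above 0 with upper-quartile and loess scaling and below 0 with library totals.

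Profiles like those of 2 of the genes were sought by the root-mean-square difference of log2 TMM-scaled CPM over the 4 libraries. For RN7SK the closest were MRPS33 (0.0126), TAP2 (0.0330) and USP4 (0.0373), all within a few per cent of it in each library. For WDR74 the closest were SPAG7 (0.115), C10orf143 (0.149) and ZNF503-AS2 (0.155), which matched its level but had log2 fold changes of 0.04, -0.01 and -0.01. This likeness over 4 libraries is a description.

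The other genes of the pathway were taken from 8 lists of snRNA genes and of the proteins that transcribe, process or bind snRNAs, 163 promoters in all after the filter. Of these, 7 (4.29%) had an edgeR adjusted p under 0.05, against 2.47% of all promoters, with 1 higher and 6 lower in overexpression, and 29 (17.8%) had an unadjusted p under 0.05, against 17.2% of all promoters. Each count per list below is to be read against these shares of all promoters. The median log2 fold change of the 163 was -0.08. Of the 65 that lay in the highest abundance group, 4 fell (6.15%), against 4.36% of all promoters in that group, and of the 71 in the next lower group 2 fell (2.82%), against 0.753%. These shares rest on 4 and 2 promoters. The number past the threshold was 1 with DESeq2, and it was lower than 7 whichever library was left out, by an amount that depended on the library.

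Of 19 other snRNA genes tested, 1 rose and 0 fell, with a median log2 fold change of 0.06. The one that rose was RNVU1-14, a variant U1 gene, with 18.2 and 23.1 in control and 29.6 and 24.7 in overexpression and a log2 fold change of 0.44 (SE 0.131, edgeR adjusted p 0.0404). RNVU1-14 was past the threshold and higher in 8 of 14 alternatives and past it in the other direction with library totals (-0.36, adjusted p 0.0207). It was not past it without the filter (adjusted p 0.0634), without control replicate 1 (0.26, adjusted p 0.465), without overexpression replicate 1 (0.27, adjusted p 0.555) or without overexpression replicate 2 (adjusted p 0.0790), and DESeq2 gave it no adjusted p. U1 genes have many near-identical copies, so its counts are uncertain. RNU1-2, a U1 gene, had the largest value at 0.62 (SE 0.218 and adjusted p 0.0967), and RNU6-9, a U6 gene, the lowest at -0.44 (SE 0.220 and adjusted p 0.282). Other short polymerase III genes, 14 tested, gave 0 calls, with 1 unadjusted p under 0.05, and a median of -0.01. RPPH1, the RNA of RNase P, had the smallest p of these, at a log2 fold change of -0.24 (SE 0.119 and adjusted p 0.279).

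Against 2.47% of all promoters past the threshold, 1 of 26 promoter factors of snRNA genes fell and 0 rose. It was ZNF143, the activator of the distal element, which went from 41.7 and 42.1 in control to 31.2 and 29.2 in overexpression, a log2 fold change of -0.46 (SE 0.118 and adjusted p 0.0136). Of 15 promoters of polymerase III subunits and partners, 0 passed the threshold, 2 had an unadjusted p under 0.05, and the smallest p was that of POLR3C (log2 fold change -0.36, SE 0.157, adjusted p 0.193). Among 19 genes of the Integrator complex, which cleaves the ends of polymerase II snRNAs, 1 fell, INTS6, by 0.44 on the log2 scale (SE 0.119 and adjusted p 0.0219).

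Of 10 genes of the 7SK particle and P-TEFb, 2 fell, against 2.47% of all promoters past the threshold and 4.36% that fell in the highest abundance group. An unadjusted p under 0.05 was reached by 5 of the 10, against 17.2% of all promoters. The median log2 fold change of -0.22 was the lowest of the 8 lists, and the list was also the most accessible of the 8, at a median control percentile of 87.6. MEPCE, the enzyme that caps 7SK, went from 29.2 and 30.9 in control to 18.1 and 23.0 in overexpression, a log2 fold change of -0.59 (SE 0.136 and adjusted p 0.00414). CCNT2, a cyclin of P-TEFb, had a log2 fold change of -0.43 (SE 0.120 and adjusted p 0.0280). LARP7, which binds the 3' end of 7SK, had -0.20, and HEXIM1, the inhibitor of P-TEFb, had 0.05, neither with an unadjusted p under 0.05. The RN7SK promoter itself had 0.11, as given above.

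Of 22 genes for Sm proteins, which form the ring around most snRNAs, and for the SMN assembly machinery, 0 passed the threshold and 1 had an unadjusted p under 0.05. That was SNRPE, an Sm protein gene, at -0.29 (SE 0.123 and adjusted p 0.184). Of 40 genes for proteins of single snRNPs, 3 fell and 0 rose, against 2.47% of all promoters past the threshold in either direction. One was MEPCE again, which stands in both lists, and the others were TXNL4A, a U5 protein gene, at -0.52 (SE 0.144 and adjusted p 0.0264) and LSM3, a gene of the ring bound to U6, at -0.48 (SE 0.146 and adjusted p 0.0433). With loess scaling the 6 promoters that fell were no longer past the threshold, at adjusted p-values from 0.0991 for MEPCE to 0.349 for CCNT2, and with upper-quartile scaling MEPCE alone of these 6 remained (adjusted p 0.0193). Direction was kept by each of the 6 in all 14 alternatives, while the threshold was passed in 11 of them by MEPCE and in 7 or 8 by the others. These tallies include library totals, where 99.7% of all calls were lower. They also take DESeq2 as not passed for MEPCE, TXNL4A and LSM3, to which it gave no adjusted p.

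**Figure D5:**
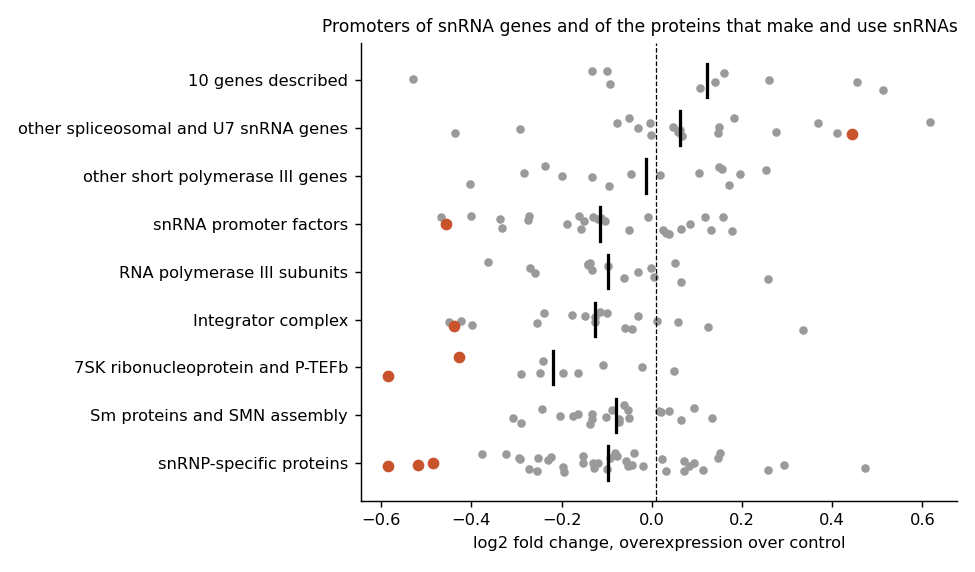
Log2 fold change of each promoter tested in the 10 genes and the 8 pathway lists, with the list median (black bar), promoters past an adjusted p of 0.05 in red, and the median of all promoters (dashed). The row of the 10 genes, WDR74 included, has a median of 0.12, and the row of other snRNA genes has 0.06. The 7SK and P-TEFb row has the lowest, -0.22.

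Across the 17 different genes next to the members, 1 fell (STX5-DT) and 0 rose, against 2.47% of all promoters past the threshold. Not all of these genes have separate windows, since CLASP1 and NIFK-AS1 had nearly the same counts in each library. Some overlap a member, and the farthest, LINC02247, lies 129366 bases from RNU6ATAC. The median log2 fold change of the 17 genes was 0.04, with a range from -0.41 to 0.31. POLDIP3, 360 bases from RNU12, had 55.8 and 56.2 in control and 52.4 and 58.1 in overexpression, about the same in all libraries (log2 fold change -0.04, SE 0.103). TAF12-DT, which overlaps RNU11, had a log2 fold change of 0.04 (SE 0.117), and CLASP1, whose span holds RNU4ATAC, had 0.06 (SE 0.126). NIFK-AS1, with nearly the same counts as CLASP1, lies 118644 bases from RNU4ATAC, so the CLASP1 value need not describe sequence near RNU4ATAC.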

How the data were processed

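Chromatin accessibility was measured by ATAC-seq in 4 HEK293T libraries, grouped by their labels. According to the study's methods, the authors trimmed paired reads, aligned them to the CHM13 assembly, filtered for pairing and mapping quality, removed duplicates and counted 2 kb windows centred on start sites as promoters. The authors deposited whole-number counts per promoter, 1 row per Entrez identifier, without normalisation, and fragments can be counted in overlapping windows. The 2 deposited peak lists were not used, because their CHM13 positions could not be matched to gene positions on GRCh38.

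Symbols came from RefSeq (GRCh38.p14) for 28763 of 28775 rows. Promoters passing filterByExpr (23407) were scaled by TMM and tested in edgeR 4.0.16 (R 4.3.3) by the quasi-likelihood F-test, legacy form, without covariates, two-sided, with Benjamini-Hochberg adjustment over all promoters. The prior degrees of freedom were infinite, so dispersion was shared among promoters of like abundance. In edgeR fits the SE was the absolute log2 fold change divided by the square root of F. It therefore follows count depth and the shared dispersion, and not the replicate spread of the single gene. The method was tested on simulated data. Nothing in the labels says whether libraries came from separate cultures, so p-values may measure technical spread. Alternatives used other scalings and filters, DESeq2 1.42.0, the edgeR 4 form and the replicate block, and left out mitochondrial promoters or single libraries. Named genes were the 10 members, their nearest neighbours, up to 4 promoters with the smallest p past the threshold in each list (or the 1 with the smallest p), and the 3 closest profiles of WDR74 and RN7SK. Others (MIR4485, STX5, RNU1-2, RNU6-9, LARP7, HEXIM1 and markers) were chosen after their values were seen. One marker is not reported here. Members and lists were chosen with earlier results of these data known.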

Additional observations from a re-analysis of the deposited data

How the results depend on the processing

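Why values moved was not tested unless stated. Of the 10 genes, 0 passed the threshold in the reported fit. With library totals 8 did so, all of them lower, where 16325 of all 23407 promoters passed and 99.7% of those were lower. WDR74 alone passed after upper-quartile and after loess scaling. Under the other alternatives that kept all 4 libraries 0 passed, but DESeq2 gave an adjusted p for WDR74 only. The median log2 fold change of the 10 genes (0.12) became -0.67 with library totals, 0.20 after upper-quartile and 0.22 after loess scaling. It ranged from -0.081 to 0.12 with a single library left out. Counting RNU4-1 and RNU4-2 once did not move either value beyond the spread between replicates.

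The number of all promoters past the threshold (579, 53.0% lower) was 16325 (99.7% lower) with library totals, 54 (40.7% lower) with loess scaling, 368 with at least 10 counts in every library, where fewer promoters were tested, and 108 with DESeq2, and ranged from 101 to 205 without single libraries, where fewer samples enter. With upper-quartile scaling 22.1% of calls were lower. The 7 pathway promoters became 155 with library totals, 2 after upper-quartile scaling, 1 after loess scaling and 1 with DESeq2, and ranged from 0 to 5 without single libraries.

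Across 14976 promoters the deviations of libraries that share a number correlated at 0.0503, which was not treated as pairing. With the replicate block, 483 promoters and 7 pathway promoters passed, the 10 genes still gave 0, and their median was within the spread. Depth limits RNU4-1, RNU5A-1 and RNU5B-1 most, with 11 to 27 counts in the shallowest library.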
